A study of Mus musculus with 2 samples.

Results

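The miR-106b-25 and miR-106a-363 clusters and the solitary gene Mir92b are the relatives of the miR-17-92 polycistron in the mouse genome, and their levels are described here in the newborn forebrain. The members were chosen by symbol in the GENCODE annotation and number 10 hairpin genes of the 1973 in the tables: Mir106b, Mir93 and Mir25 of the first cluster, Mir106a, Mir18b, Mir20b, Mir19b-2, Mir92-2 and Mir363 of the other, and Mir92b. All 10 were matched in both tables, and all had reads in both pups. Small RNA below 30 nucleotides was sequenced from the forebrains of 2 mice of strain B6NCrl at postnatal day 0, with a whole forebrain of pup 3 in a library and that of pup 1 in another. No genotype change or treatment is named, sex was not recorded, and both pups carry the same donor record in the labels. They form 1 group, so there is no contrast between conditions and no test. Pup 3 is set against pup 1 only to show the spread between the 2 libraries. Each pup is a single library, so animal, dissection and library preparation cannot be told apart in any difference between the pups.

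MicroRNAs of these clusters act through the seed, bases 2 to 8 of the mature sequence, which pairs with target transcripts and lowers their output. The clusters arose by duplication, so each carries hairpins with seeds of the miR-17, miR-18, miR-19 or miR-25/92 family. The miR-17 family is known to repress the cell cycle inhibitor Cdkn1a, and the miR-25/92 family the death-promoting gene Bcl2l11. In mouse, miR-106b-25 is known to promote proliferation of adult neural stem and progenitor cells, and miR-92b to restrain intermediate progenitors of the embryonic cortex through Eomes. Mcm7, the host of miR-106b-25, encodes a subunit of the replicative DNA helicase and is transcribed in dividing cells.

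The mature sequences show where the products of the loci differ and which seeds the loci share. They are RefSeq sequences on GRCm38.p6, written 5′ to 3′, with the seed in capitals, and show the arm known as the main product of each hairpin.
miR-106b-5p: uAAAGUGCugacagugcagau
miR-93-5p: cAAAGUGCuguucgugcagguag
miR-106a-5p: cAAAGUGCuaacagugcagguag
miR-20b-5p: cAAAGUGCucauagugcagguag
miR-18b-5p: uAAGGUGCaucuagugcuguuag
miR-19b-3p: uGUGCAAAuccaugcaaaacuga
miR-25-3p: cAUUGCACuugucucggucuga
miR-92a-3p: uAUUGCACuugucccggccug
miR-363-3p: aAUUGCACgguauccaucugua
miR-92b-3p: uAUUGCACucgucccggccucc
Mir106b, Mir93, Mir106a and Mir20b carry the miR-17 seed AAAGUGC. Mir25, Mir92-2, Mir363 and Mir92b carry the miR-25/92 seed AUUGCAC. Mir18b has the miR-18 seed AAGGUGC and Mir19b-2 the miR-19 seed GUGCAAA. Among 1674 distinct mature sequences in the RefSeq table, 7 carry the miR-17 seed (0.418%), 6 the miR-25/92 seed (0.358%), and 2 each the miR-18 and the miR-19 seed (0.119%).

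The polycistron's closest products are shown for comparison, because the counts depend on whether a read can be placed at a single locus.
miR-17-5p: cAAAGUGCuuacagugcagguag
miR-20a-5p: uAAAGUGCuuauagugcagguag
miR-18a-5p: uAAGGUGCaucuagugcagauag
Counted from the 5′ end of the first sequence named, miR-106a-5p differs from miR-17-5p by the single substitution A10U. Between miR-20b-5p and miR-20a-5p the differences are C1U and C10U, and between miR-18b-5p and miR-18a-5p they are U18A and U20A. The mature miR-19b-3p is also made by Mir19b-1, and miR-92a-3p by Mir92-1, letter for letter. The hairpin of Mir19b-2 shares a run of 25 nucleotides with Mir19b-1, and that of Mir92-2 a run of 22 with Mir92-1. In the other 8 members the longest run shared with any other hairpin in the table was 12 to 17 nucleotides. Reads that mapped to several places were tallied apart by the authors and counted for no gene, and they made up 43.5% of all reads in pup 3 and 43.0% in pup 1. Counts of Mir19b-2 and Mir92-2 can therefore lack reads of their main product, and their levels are uncertain.

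Reads assigned to a microRNA gene numbered 7678662 in pup 3 and 9037087 in pup 1. Levels are counts per 1000000 assigned reads (CPM), and a single read is worth 0.130 CPM in pup 3 and 0.111 CPM in pup 1. A count pools both arms of a hairpin. A read spans a whole mature microRNA, so CPM is not divided by length, and the order of hairpins is also given per 100 nucleotides of hairpin. Intervals are 95% exact (Clopper-Pearson) intervals of a share of reads and cover counting error only, since no molecular identifiers are named. In whole tissue, fewer cells of a type and less RNA per cell cannot be told apart.

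Together the 10 members took 1.60% of the assigned reads of pup 3 (95% exact interval 1.592 to 1.61) and 1.56% of those of pup 1 (1.552 to 1.568). Their mean share was 1.58% ± 0.0289 (SD, n = 2). Most of these reads came from miR-106b-25, with 90.4% of the members' reads in pup 3 and 79.0% in pup 1. Mir92b supplied 8.01% in pup 3 and 19.5% in pup 1, and the 6 hairpins of miR-106a-363 supplied 1.63% in pup 3 and 1.55% in pup 1. The share of the miR-17-92 polycistron was 2.65% in pup 3 and 1.60% in pup 1. Its values differed more between the pups than the members' sum did, and in pup 1 the sums of the paralogs and of the polycistron were close. The members' sum holds differences in opposite directions. The 9 members without Mir92b took 1.47% in pup 3 and 1.26% in pup 1, and Mir92b took 0.128% in pup 3 and 0.303% in pup 1.

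In the miR-106b-25 cluster, Mir106b and Mir93 were abundant and Mir25 was lower. All 3 lie on the minus strand of chromosome 5 (GRCm38) in intron 13 of the Mcm7 transcript Mcm7-201, Mir106b from 138165737 to 138165818, Mir93 from 138165523 to 138165610, and Mir25 from 138165321 to 138165404. Mir93 and Mir25 also overlap an exon of a short Mcm7 transcript. The hairpins are printed with both annotated arms in capitals, to show that neighbours with a common seed differ around it.
Mir106b: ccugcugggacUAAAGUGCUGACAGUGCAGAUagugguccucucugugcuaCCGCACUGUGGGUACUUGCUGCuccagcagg
Mir93: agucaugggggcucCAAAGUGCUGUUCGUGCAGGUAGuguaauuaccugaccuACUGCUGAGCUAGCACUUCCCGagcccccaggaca

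Mir93 (ENSMUSG00000065527.1), a miR-17 seed microRNA, stood at 8299 CPM in pup 3 (interval 8235 to 8364) and at 4914 CPM in pup 1 (4869 to 4960.2). Mir106b (ENSMUSG00000065514.1), its neighbour of the same seed family, stood at 5652 CPM in pup 3 (5599 to 5705) and at 6987 CPM in pup 1 (6933 to 7041). Mir25 (ENSMUSG00000065394.1), of the miR-25/92 family, stood at 512 CPM in pup 3 (497 to 529) and at 420.2 CPM in pup 1 (407 to 434). Mir93 and Mir25 were thus higher in pup 3, while Mir106b was higher in pup 1, and the order of Mir93 and Mir106b changed between the pups.

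Within a library the ratio of Mir93 to Mir106b needs no scaling between libraries. It was 1.47 in pup 3 (interval 1.450 to 1.486) and 0.703 in pup 1 (0.695 to 0.712), a 2.09-fold difference between pups for hairpins that start 208 bp apart in the same intron. The ratio of Mir25 to Mir106b was 0.0907 in pup 3 and 0.0601 in pup 1. Mir106b had 4.41 times the level of Mir92b in pup 3 and 2.30 times in pup 1. Hairpins of a single host intron therefore did not keep a fixed proportion of reads between these pups.

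Mir92b (ENSMUSG00000076255.2), the relative with no cluster partner, ranked 3 among the 10 members by mean level and had the largest fold between pups among the members whose mean reached 100 CPM, although the gap of Mir93 was wider in CPM. It lies on the minus strand of chromosome 3 from 89227116 to 89227198 (GRCm38), within no other annotated gene and 28 bp from the coding gene Mtx1. Its hairpin has the highest GC content of the 10, 67.5%, and is shown with both arms in capitals.
Mir92b: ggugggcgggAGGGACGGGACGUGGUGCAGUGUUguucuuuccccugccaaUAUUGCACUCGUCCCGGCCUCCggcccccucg
Mir92b stood at 1282 CPM in pup 3 (1257 to 1308) and at 3035 CPM in pup 1 (2999 to 3071). The level in pup 1 was well above that in pup 3, while the counting intervals were narrow in both. Its mean of 2158 CPM had an SD of 1239 (n = 2).

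The miR-106a-363 cluster was detected throughout, but at low levels. Its 6 hairpins lie within 875 bp on the minus strand of chromosome X (GRCm38), from Mir363, which starts at 52741693, to Mir106a, which ends at 52742567. Mir106a overlaps exon 2 of the noncoding transcript Kis2-201, and the other 5 lie in no other annotated gene. The sum of the cluster was 261 CPM in pup 3 and 242 CPM in pup 1, against 14464 CPM in pup 3 and 12321 CPM in pup 1 for miR-106b-25.

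Mir363 (ENSMUSG00000070106.1), the last hairpin and a miR-25/92 seed microRNA, led the cluster with 96.6 CPM in pup 3 (89.8 to 104) and 124 CPM in pup 1 (117 to 132). Mir106a (ENSMUSG00000065456.1) stood at 62.4 CPM in pup 3 (56.9 to 68.2) and at 37.7 CPM in pup 1 (33.8 to 42.0). Mir20b (ENSMUSG00000076041.1) stood at 54.2 CPM in pup 3 (49.1 to 59.6) and at 32.4 CPM in pup 1 (28.8 to 36.4). Both miR-17 seed hairpins were higher in pup 3, and Mir363 was higher in pup 1.

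Mir106a and Mir20b kept their proportion, with a ratio of 1.15 in pup 3 (1.01 to 1.32) and 1.16 in pup 1 (0.993 to 1.37), and these intervals overlap. In contrast, the ratio of Mir363 to Mir106a was 1.55 in pup 3 (1.38 to 1.74) and 3.30 in pup 1 (2.92 to 3.73). Mir92-2 (ENSMUSG00000065613.1), which shares miR-92a-3p with the polycistron, stood at 31.5 CPM in pup 3 (27.7 to 35.7) and at 35.5 CPM in pup 1 (31.7 to 39.6). Its intervals overlap between the pups.

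Mir18b (ENSMUSG00000077111.2) and Mir19b-2 (ENSMUSG00000065473.1) were the lowest members. Mir18b had 98 reads in pup 3, or 12.8 CPM (10.4 to 15.6), and 85 in pup 1, or 9.41 CPM (7.51 to 11.6). Mir19b-2 had 30 reads in pup 3, or 3.91 CPM (2.64 to 5.58), and 20 in pup 1, or 2.21 CPM (1.35 to 3.42). At this depth the CPM intervals of both hairpins overlap between the pups, which does not by itself mean equal levels.

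**Figure D1:**
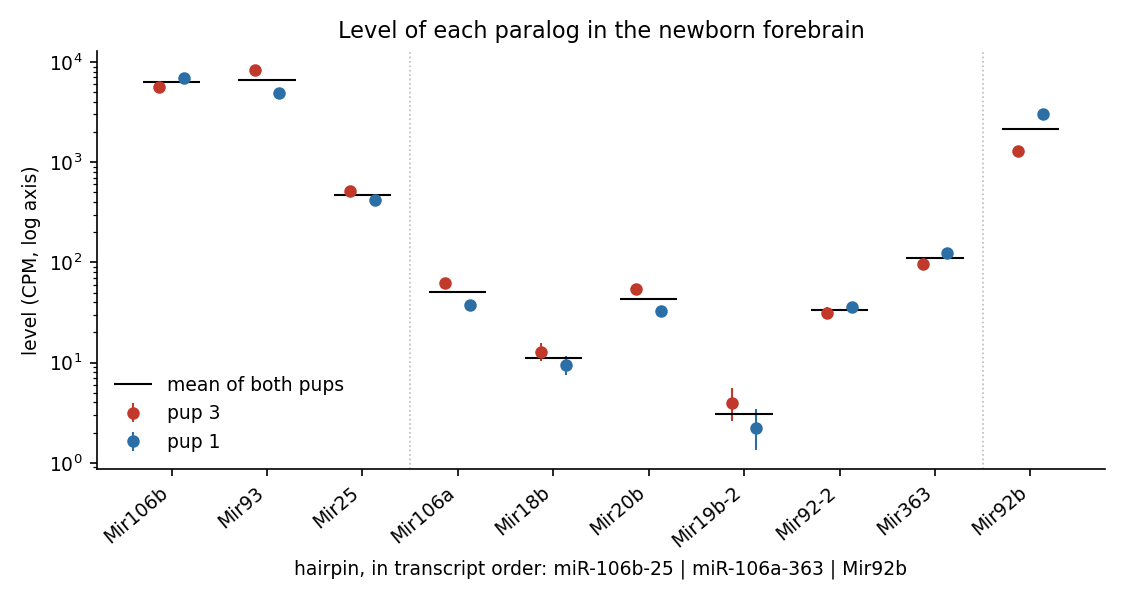
Level of each member in CPM on a log axis, pup 3 in red and pup 1 in blue, with 95% exact counting intervals (hidden by the points where narrow) and the mean of both pups as a line. Mir106b and Mir93 lie at 4914 CPM or above in both pups, and every member of miR-106a-363 lies at 124 CPM or below.

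By mean level the order was Mir93 (6607 CPM), Mir106b (6319.5), Mir92b (2158), Mir25 (466), Mir363 (110.5), Mir106a (50.1), Mir20b (43.3), Mir92-2 (33.5), Mir18b (11.1) and Mir19b-2 (3.06 CPM). In 6 of the 9 pairs of neighbours in this order the values of the 2 pups did not overlap. Mir93 with Mir106b, Mir106a with Mir20b and Mir20b with Mir92-2 overlapped and do not differ beyond their spread by this comparison of ranges. Within each library, however, Mir106a was above Mir20b by a like factor, while the order of each of the other pairs differed between the pups. Per 100 nucleotides of hairpin, Mir106b (7707 CPM) came before Mir93 (7508 CPM), and the other 8 kept their places. Among all 1973 genes, Mir93 was at rank 28, Mir106b at 31 and Mir92b at 79, while Mir19b-2 was at rank 387.

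The 3 genes closest to Mir93 by Euclidean distance in log2 CPM over the 2 pups were Mir128-1 (distance 0.31), Mir30d (0.36) and Mir98 (0.45). Mir128-1 stood at 6733 CPM in pup 3 and 5104 CPM in pup 1, and Mir30d at 8898 CPM in pup 3 and 6261 CPM in pup 1. With 2 samples this likeness says little beyond level.

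**Figure D2:**
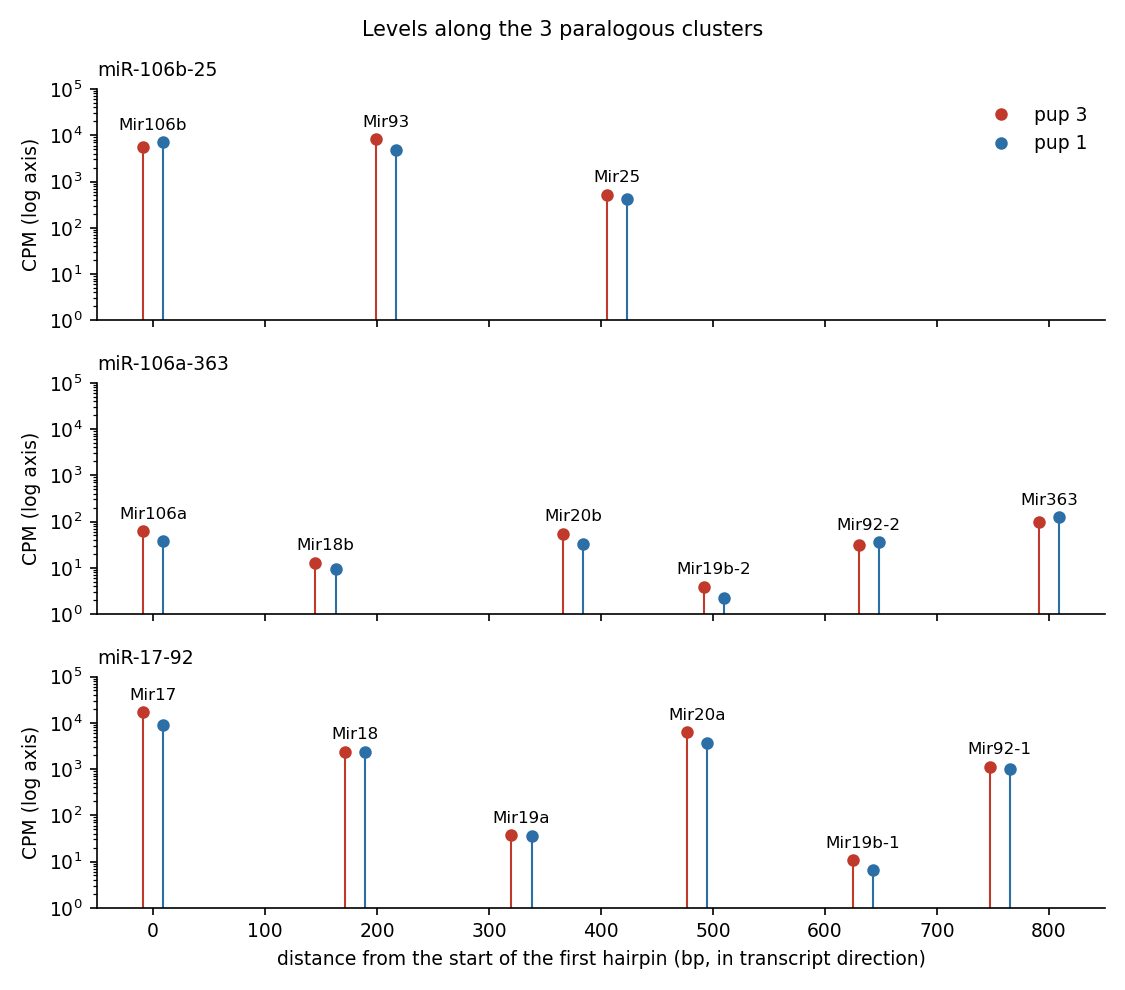
Level in CPM (log axis) of each hairpin against its distance in bp from the start of the first hairpin of its cluster, pup 3 in red and pup 1 in blue. Each miR-106a-363 hairpin with a miR-17, miR-18, miR-19b or miR-92a counterpart in miR-17-92 lies below it in both pups, and in both of these clusters a miR-19 hairpin (Mir19b-2, Mir19b-1) is the lowest. Hairpins of the miR-19b and miR-92a pairs make the same mature product and can lack its reads, so their places are uncertain.

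Set against the related polycistron, the X-linked hairpins with a counterpart there were lower, by more than 100-fold where the mature sequences differ. Mir363 has no such counterpart. The sequences of a pair differ by as little as 1 substitution, and no aligner or mismatch setting is named. Whether reads of the abundant hairpin were placed at its low counterpart, or the reverse, was not tested, so these low levels are uncertain too. Mir17 (16718 CPM in pup 3 and 8839 CPM in pup 1) had 268 times the reads of Mir106a in pup 3 and 234 times in pup 1. Mir20a (6257 CPM in pup 3 and 3739 CPM in pup 1) had 115 times the reads of Mir20b in both pups, 115.5 in pup 3 and 115.3 in pup 1. Mir18 (2343 CPM in pup 3 and 2371 CPM in pup 1) had 184 times the reads of Mir18b in pup 3 and 252 times in pup 1. For Mir92-1 (1116 CPM in pup 3 and 979 CPM in pup 1) over Mir92-2 the factors were 35.4 in pup 3 and 27.6 in pup 1, and for Mir19b-1 (10.8 CPM in pup 3 and 6.64 CPM in pup 1) over Mir19b-2 they were 2.77 in pup 3 and 3.00 in pup 1. Both hairpins of each of these pairs make the same mature product and can lack its reads. In both clusters the miR-17 seed hairpins stood above the miR-18 and miR-19 hairpins.

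Sums over a seed family set the paralogs beside the polycistron. For the miR-17 seed the members held 37.98% of the reads of paralogs and polycistron in pup 3 (37.8 to 38.2) and 48.8% in pup 1 (48.6 to 49.0). For the miR-25/92 seed they held 63.3% in pup 3 (62.6 to 63.9) and 78.7% in pup 1 (78.3 to 79.1), most of it from Mir92b. Among counted reads, the paralogs held the larger part at miR-25/92 seed hairpins in both pups, and the smaller part at miR-17 seed hairpins. The polycistron's hairpin of the miR-25/92 seed, Mir92-1, can lack the reads of its main product. Which source of miR-25/92 seed reads was larger can therefore not be told from these counts.

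In the other families most counted reads were at polycistron hairpins. Mir18b held 0.542% of the miR-18 seed reads in pup 3 (0.440 to 0.660) and 0.395% in pup 1 (0.316 to 0.488). For the miR-19 seed, Mir19b-2 held 7.56% of 397 reads in pup 3 (5.16 to 10.6) and 4.95% of 404 in pup 1 (3.05 to 7.54). Both these families' intervals overlap between the pups. Reads placed at several loci are missing from the miR-19 and miR-25/92 sums, so the locus that made most miR-19b-3p or miR-92a-3p cannot be read from these counts. The genes Mir6383, Mir32 and Mir367, which carry family seeds at other loci, were not included.

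**Figure D3:**
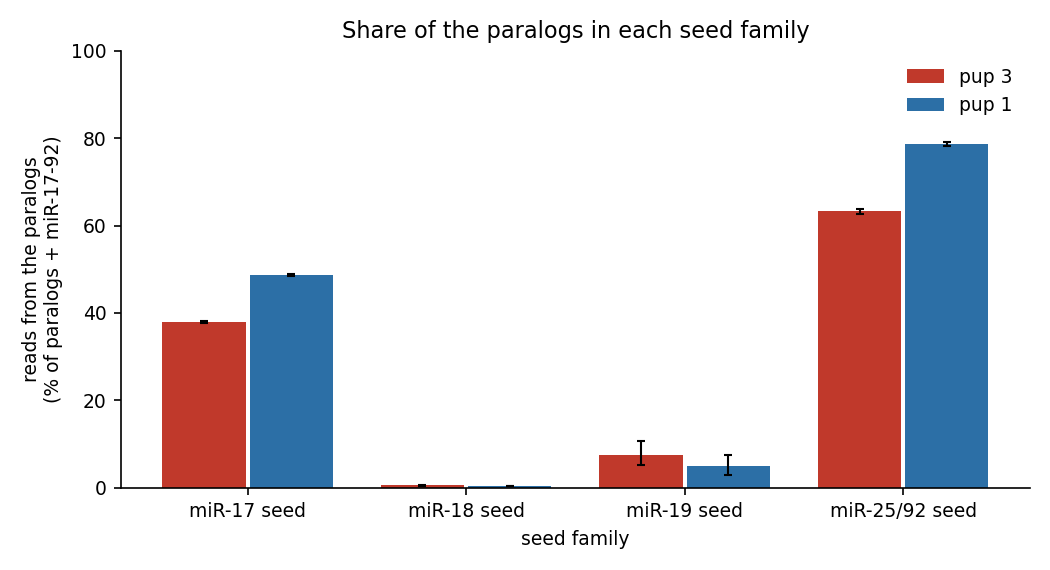
Reads of the members as a percentage of the reads of members plus miR-17-92 polycistron, by seed family, pup 3 in red and pup 1 in blue, with 95% exact intervals for counting error. The share is 63.3% in pup 3 and 78.7% in pup 1 for the miR-25/92 seed and under 1% in both pups for the miR-18 seed. Counts of the miR-19 and miR-25/92 families can lack reads of the shared products miR-19b-3p and miR-92a-3p, so their shares are uncertain.

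To place the gaps between pups against the rest of the table, the ratio of pup 3 over pup 1 was taken for every gene after adding 0.5 to its counts and scaling with TMM factors from edgeR. A gene was counted as apart at 1.5-fold or more. There were 310 genes whose mean reached 10 CPM, of which 17.4% were higher in pup 3 by 1.5-fold and 15.5% lower. Of the 9 members with that mean, 4 were higher by this rule (Mir93, Mir106a, Mir18b, Mir20b), 1 was lower (Mir92b) and 4 were neither. Mir19b-2, with a mean of 3.06 CPM, was not among them. In either direction 5 of 9 members were apart, against 32.9% of the 310 genes, and nothing more is read from so small a count.

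At 2-fold, 7.74% of the 310 genes were higher and 3.87% lower in pup 3, and 1 of the 9 members, Mir92b, was lower. The median log2 ratio of the 9 members with a mean of 10 CPM was 0.49, beside -0.032 for the 310 genes. With Mir19b-2 included it was 0.56, and for the 6 polycistron hairpins it was 0.64. Scaling by total counts moved the median of the 310 genes by -0.20 on the log2 scale, and 12.3% of them were then higher and 23.5% lower by 1.5-fold. Each ratio compares 2 libraries of the same group and has no replicate check.

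Mir93 had a log2 ratio of 0.96 (95% exact conditional binomial interval 0.94 to 0.97), and 13.5% of the 310 genes were at least as far from 0. Mir92b had -1.04 (-1.08 to -1.01), with 10.6% of the genes at least as far. Among the low hairpins, Mir106a had 0.92 (0.72 to 1.13), Mir20b 0.94 (0.72 to 1.16) and Mir18b 0.64 (0.21 to 1.08). Mir25 had 0.49 (0.42 to 0.55), and Mir19b-2 had 1.01 with a wide interval of 0.16 to 1.91.

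Mir106b had a log2 ratio of -0.11 (-0.12 to -0.09) and Mir363 of -0.16 (-0.30 to -0.03), close to the median of all genes. Mir92-2 had 0.028 (-0.22 to 0.27), which turned to -0.17 under total counts and to -0.046 with a GC trend removed. Of the polycistron, Mir17 had 1.12 (1.11 to 1.13), Mir20a 0.94 (0.92 to 0.96), Mir92-1 0.39 (0.35 to 0.43), Mir19a 0.25 (0.010 to 0.48) and Mir18 0.18 (0.15 to 0.21). Mir18 turned to -0.017 under total counts.

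**Figure D4:**
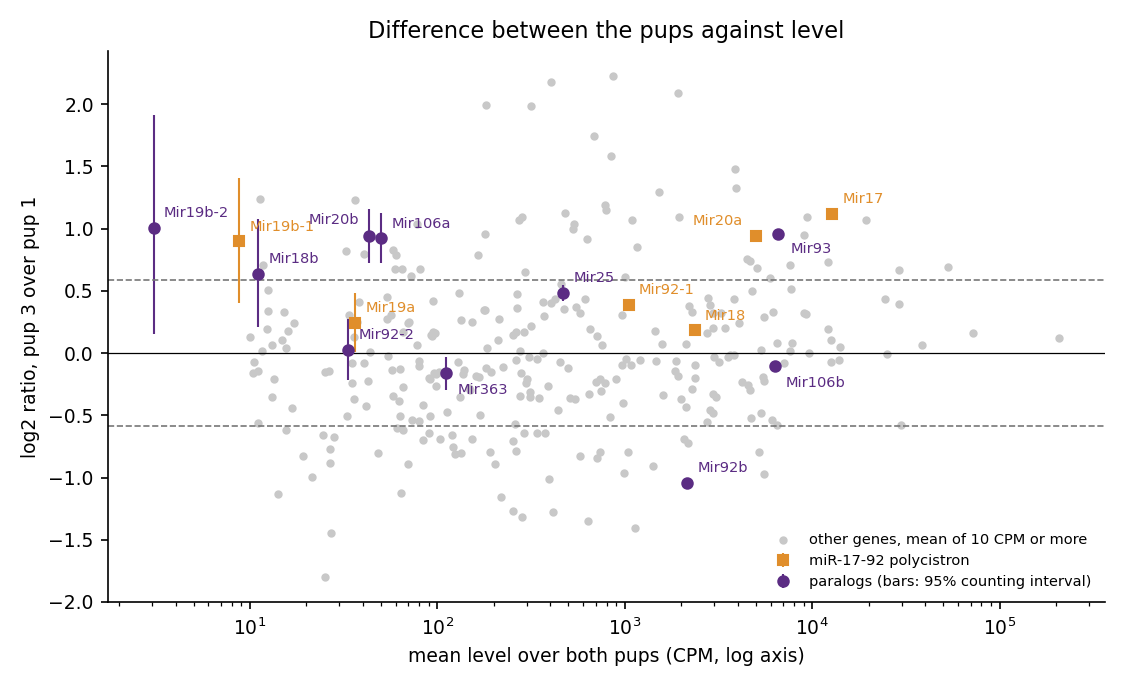
Log2 ratio of pup 3 over pup 1 against mean level in CPM (log axis), with members in purple, the miR-17-92 polycistron in orange and the other genes whose mean reached 10 CPM in grey. Mir19b-2 and Mir19b-1 are drawn although their means are lower. Bars are 95% exact counting intervals and dashed lines mark 1.5-fold. Mir93, Mir106a and Mir20b lie near Mir20a and Mir17 at 0.92 to 1.12, Mir106b near 0 and Mir92b at -1.04.

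Within the miR-17 seed family the ratios differed with the end of the mature sequence, a pattern seen only after the values were known. Mir93, Mir106a, Mir20b, Mir17 and Mir20a, from 3 chromosomes, have 5p products that end in GGUAG, and their log2 ratios were between 0.92 and 1.12. Of 1674 mature sequences from RefSeq, 9 have this ending (0.538%), and these 5 hairpins were the ones among the 310 genes that make such a product. The product of Mir106b has the same seed and a different end, and its log2 ratio was -0.11. Ratios between 0.92 and 1.12 also occurred without the ending, as in Mir19b-2 (1.01, from few reads) and Mir451a (1.07). Among all 310 genes 48.1% had a ratio above 0, but the 5 hairpins were grouped after their ratios were known. All 5 lie in the loci compared here, so no gene from elsewhere can check the pattern. The contrast within the family rests on Mir106b alone. The count does not separate arms, and what part the ending plays in the ratios was not tested.

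Base composition moved weakly with the ratios over the table. Over 265 of the 310 genes (85.5%) with a RefSeq hairpin, Pearson's r of the log2 ratio with hairpin GC content was -0.14, and genes are not independent replicates. The tercile of highest GC content had a median log2 ratio of -0.13 and the lowest tercile one of 0.14. With a linear trend on GC content removed, Mir92b had -0.91 and Mir93 0.97. Both remained past 1.5-fold.

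Markers of cell types were also compared, and some lists differed more between the pups than others. The log2 ratios of the list sums ran from 1.71 (epithelial) to -0.85 (muscle). Those of the endothelial (0.065), choroid plexus (-0.14) and Hox (-0.18) lists were smaller in size than the median absolute log2 ratio of the 310 genes, 0.36. Those of the erythroid (0.86), neural (0.66) and leukocyte and microglial (0.49) lists were larger. Log2 ratios are TMM scaled and CPM is not, so a hairpin lower in CPM in pup 3 can have a positive ratio, as Mir126a does (0.065). The 6 epithelial hairpins, all measured, summed to 10516 CPM in pup 3 and 3702 CPM in pup 1, and the 3 erythroid hairpins to 379 CPM in pup 3 and 240.01 CPM in pup 1. Mir451a carried the erythroid difference (log2 ratio 1.07), while Mir144 (-0.67) and Mir486 (-0.16) were lower in pup 3. Neural hairpins (10 of 11 measured) summed to 46120 CPM in pup 3 and 33535 CPM in pup 1, with Mir137, a microRNA of neurons, in the lead. Of these 10, 9 had at least 10 reads in both pups, while the 3 multi-copy Mir124a hairpins had only 0.781 to 14.7 CPM in pup 3 and 2.21 to 4.98 CPM in pup 1. Mir124a-2 was the neural hairpin with a negative log2 ratio (-1.22, from few reads). Endothelial Mir126a stood at 36865 CPM in pup 3 and 40491 CPM in pup 1, and 3 leukocyte and microglial hairpins of 4 summed to 703 CPM in pup 3 and 575 CPM in pup 1. The 5 choroid plexus and multiciliated hairpins summed to 11009 CPM in pup 3 and 13891 CPM in pup 1, where Mir204, Mir449a and Mir34b had negative log2 ratios and Mir34c (0.33) and Mir211 (0.056) positive ones. Hox cluster hairpins summed to 147 CPM in pup 3 and 192 CPM in pup 1, with Mir196a-1 of 5 at 0 in both. The 5 muscle hairpins measured, of 6, summed to 76.4 CPM in pup 3 and 159 CPM in pup 1, with Mir1a-1, Mir133a-1 and Mir133a-2 listed at 0 in both. These are multi-copy hairpins whose reads can map to several places, so a 0 sets no limit on their level. The part of these lists in the members' ratios was not tested.

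The strand columns of the tables have no heading, and the one that holds nearly all reads was taken as the strand of the gene. By this reading almost all reads lay on the strand of the member. At Mir92b, 2 reads of 27426 in pup 1 lay on the opposite strand, and no other member had such a read in either pup. The limit that a count of 0 allows was taken as 3 reads over the hairpin's count, an approximate upper 95% bound. This limit was 0.00471% of the reads of Mir93 in pup 3 and 0.00675% in pup 1, but 10% of those of Mir19b-2 in pup 3 and 15% in pup 1. Over all genes the opposite strand held 1.91% of the reads counted in pup 3 and 2.69% in pup 1.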

How the data were processed

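The authors deposited, for each library, a table of read counts per microRNA gene on assembly mm10 with annotation M4, per the notes beside each table. The sources used here name no aligner, counter or version. The first of 3 count columns, the sum of the others in every gene, was used; the columns have no heading, so the own-strand column was inferred from the values. Reads that the tables tally outside any gene (59.2% in pup 3, 59.8% in pup 1) stayed out of library sizes. Replicates are separate pups, per the labels.

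Symbols and positions came from GENCODE M21 (GRCm38) by gene identifier, matching 1894 of 1973. Sequences came from RefSeq (GRCm38.p6), where all 10 members matched with equal coordinates. Ratios used 0.5 added and TMM factors of edgeR 4.0.16 (0.933 for pup 3, 1.07 for pup 1). No quasi-likelihood test was run, because 1 group has no contrast. Alternatives were total counts, DESeq2 1.42.0 size factors, other added counts, filters and folds, the own-strand column and each pup alone. The text names all members, the 6 polycistron hairpins, overlapping genes, the 3 genes nearest to Mir93 and the marker lists. Other genes named (the family seed carriers Mir6383, Mir32 and Mir367, and Mtx1) came from sequence or position. Members and lists were chosen with earlier results of these data known. Ratios and intervals were checked on simulated counts. R 4.3.3 and Python 3.11.15 were used.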

Additional observations from a re-analysis of the deposited data

How the results depend on the processing

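No paired analysis was possible because the samples form 1 group. With each pup alone, the members' summed share was 1.56% to 1.60%, 6 to 10 of the 10 members kept their rank, and 4 to 5 members reached 100 CPM. The seed family shares of each pup are those of the report, 37.98% to 48.8% (miR-17), 0.395% to 0.542% (miR-18), 4.95% to 7.56% (miR-19) and 63.3% to 78.7% (miR-25/92). On the own-strand column the summed share was 1.62%, since its total leaves out opposite-strand reads. Leaving out hairpins whose mature sequence another hairpin makes removes Mir92-1, so the miR-25/92 share becomes 100%, and it leaves no member with the miR-19 seed.

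The number of members 1.5-fold higher in pup 3 was 1 among the 5 with a mean of 100 CPM or more (Mir93), beside 18.2% of all genes in that setting, and 0 at 2-fold, beside 7.74%. It was 3 under total counts, where Mir18b was not past 1.5-fold (12.3% of all genes), and 5 with a mean of 1 CPM or more (18.7%) or with no filter (9.02%), where Mir19b-2 was counted. Mir92b was the 1 member lower in pup 3 in each of these settings. The log2 ratio of Mir92-2 reversed to -0.17 under total counts and to -0.046 with a linear trend on GC content removed, which was chosen after seeing the data, and the other 58 of 60 values of single members' ratios kept their sign. Depth limits Mir19b-2 and Mir18b most. Their CPM intervals overlap between the pups, while the wide intervals of their TMM-scaled log2 ratios hold only positive values (0.16 to 1.91 for Mir19b-2, 0.21 to 1.08 for Mir18b).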
